A study of Homo sapiens with 12 samples.

Results

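The data describe 9 antigen presentation genes out of 19951 gene entries in a table of mRNA and ribosome footprint values from MonoMac6 (MM6) cells, an established human acute myeloid leukemia line of monocytic type. The genes were taken by symbol: the class I heavy chains HLA-B, HLA-C and HLA-E, their light chain B2M, the peptide transporter subunits TAP1 and TAP2, the class II alpha chain HLA-DRA, the class II invariant chain CD74, and the class II regulator CIITA. The study knocked down IGF2BP2, a protein that binds transcripts carrying the m6A mark. Each group held 2 mRNA libraries and 2 footprint libraries. The control cells carried the short hairpin shNS, and the knockdown cells carried shBP2-1 or shBP2-2, each against IGF2BP2. All cells, the controls included, went through lentiviral transduction for 48 h and puromycin selection for 2 days. Cells for footprints were then held in cycloheximide for 15 min, which stalls ribosomes on their transcripts. The sources used here do not say whether replicates came from separate cultures, so p-values measure only the spread between these libraries, which may be technical.

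Cells show fragments of their own proteins to T cells on HLA molecules. A class I molecule is a heavy chain bound to B2M, and it is loaded in the endoplasmic reticulum with peptides that the TAP1 and TAP2 transporter brings in from the cytosol. Class II molecules carry peptides from endosomes. CD74 holds their groove until loading, and CIITA is the master activator of class II transcription. Monocytes present on both routes.

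The deposited values, which the authors described as normalized read counts, were rescaled within each assay so that the middle gene stayed level. Every change below is therefore relative to the middle of all genes and not an absolute amount, and in bulk samples fewer cells of a type and less RNA per cell cannot be told apart. Deposited totals ranged from 22685066 to 24854593 for mRNA and from 456338 to 4884067 for footprints, with shBP2-1 footprints the shallowest. IGF2BP2 mRNA stood at 20.3% of shNS with shBP2-1 and 31.2% with shBP2-2, and its footprints at 5.57% and 10.7%. Of 12 monocyte and myeloid markers, 11 had a mean mRNA value of at least 10 in every group and FCN1 was at 0. Their summed rescaled mRNA was 122303 to 124764 in shNS, 191136 to 192717 in shBP2-1 and 97191 to 97362 in shBP2-2, so the hairpins lay on opposite sides of the control. Marker by marker, over both hairpins, SPI1 (-0.46) and CST3 (-0.46) fell and ITGAM (0.59), S100A8 (0.55) and LYZ (0.21) rose in mRNA on the log2 scale (limma, adjusted p under 0.05), and the other 6 were not called. The part of these markers in the results below was not tested. Markers of other presenting cells were near 0: the summed mRNA of 4 dendritic cell markers was at most 9.2 in any library, and that of 5 B cell markers was at most 55.7, with PAX5 at 0. The summed mRNA of 5 T and NK cell markers was not near 0, at 1457.8 to 2118.4. NKG7 alone of these was above a mean of 10, and CD3D, CD3E and GNLY were at 0 in all groups. NKG7 mRNA was called lower in the mean of both hairpins, at -0.32 on the log2 scale (adjusted p = 0.0163, limma).

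HLA-B, HLA-C, HLA-E, TAP1, TAP2 and HLA-DRA lie in the major histocompatibility complex on chromosome 6, and the other members lie elsewhere. In GRCh38.p14, HLA-B spans chr6:31353875-31357179, HLA-C spans chr6:31268749-31272092, B2M spans chr15:44711517-44718145 and CD74 spans chr5:150401639-150412910. The promoter sequences of these 4 genes are shown because the mRNAs of the heavy chains and CD74 fell while that of their class I partner B2M rose. Each run is the 180 bases before the RefSeq start, read on the gene's strand, with motif matches in capitals.
HLA-B, chr6:31357180-31357359, minus strand: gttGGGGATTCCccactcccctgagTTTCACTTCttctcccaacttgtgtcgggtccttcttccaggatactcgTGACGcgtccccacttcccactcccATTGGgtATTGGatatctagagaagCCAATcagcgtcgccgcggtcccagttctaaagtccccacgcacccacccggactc
HLA-C, chr6:31272093-31272272, minus strand: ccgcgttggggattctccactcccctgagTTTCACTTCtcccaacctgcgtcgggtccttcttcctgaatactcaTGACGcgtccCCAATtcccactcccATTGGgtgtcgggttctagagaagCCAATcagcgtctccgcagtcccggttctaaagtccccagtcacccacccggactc
B2M, chr15:44711337-44711516, plus strand: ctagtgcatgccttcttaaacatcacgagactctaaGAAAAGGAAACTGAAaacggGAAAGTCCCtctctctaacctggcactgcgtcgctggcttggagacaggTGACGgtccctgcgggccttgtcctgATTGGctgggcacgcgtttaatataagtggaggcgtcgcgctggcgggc
CD74, chr5:150412911-150413090, minus strand: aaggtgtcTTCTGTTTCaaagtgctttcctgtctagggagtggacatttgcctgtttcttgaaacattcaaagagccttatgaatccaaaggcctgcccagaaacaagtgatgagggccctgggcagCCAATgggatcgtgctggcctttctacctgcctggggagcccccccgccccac
The capitals mark 5 motifs, searched on both strands after the sequences had been seen: the CCAAT box CCAAT, the cAMP response core TGACG, the interferon-stimulated response element GAAANNGAA, a class I form of that element GAANTGAAA, and the NF-kB site GGGNNTTNC. In the 250 bases before the start, these letters occurred in 32.0%, 21.2%, 6.88%, 1.53% and 14.2% of 35116 promoters, in that order. HLA-B and HLA-C shared a layout, with GAANTGAAA on the opposite strand at 155 and 151 bases before the start, TGACG at 106 and 105 and a CCAAT at 56 in both. Their promoters were identical in 89.0% of 254 aligned columns. Both held further CCAAT matches, and HLA-B held a GGGNNTTNC match at 177. B2M held TGACG at 75 bases and 2 overlapping GAAANNGAA matches at 144 and 138. On the opposite strand it held a GGGNNTTNC match at 124 and a CCAAT at 49. B2M and HLA-B were identical in 47.3% of 281 aligned columns. The CD74 run held 1 CCAAT, at 53 bases, and 1 GAAANNGAA match on the opposite strand, at 172. TAP1 held 2 overlapping GAAANNGAA matches on the opposite strand, at 133 and 127 bases, and TAP2 held 1 at 58 bases. A match is a description of letters and not a measured binding site. RefSeq promoters of HLA-E, HLA-DRA and CIITA are not shown.

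After IGF2BP2 knockdown, most antigen presentation mRNAs were lower than in shNS and B2M was higher. In the mean of both hairpins, 6 of the 9 members fell (HLA-B, HLA-C, TAP1, HLA-DRA, CD74 and CIITA), 1 rose (B2M), and HLA-E and TAP2 did not pass the test. Of all 12196 genes tested, 28.9% rose and 30.1% fell, for 59.0% called in either direction, at a Benjamini-Hochberg adjusted p under 0.05 in limma. The median change of the members was -0.37 on the log2 scale, beside -0.01 for all genes tested.

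**Figure D1:**
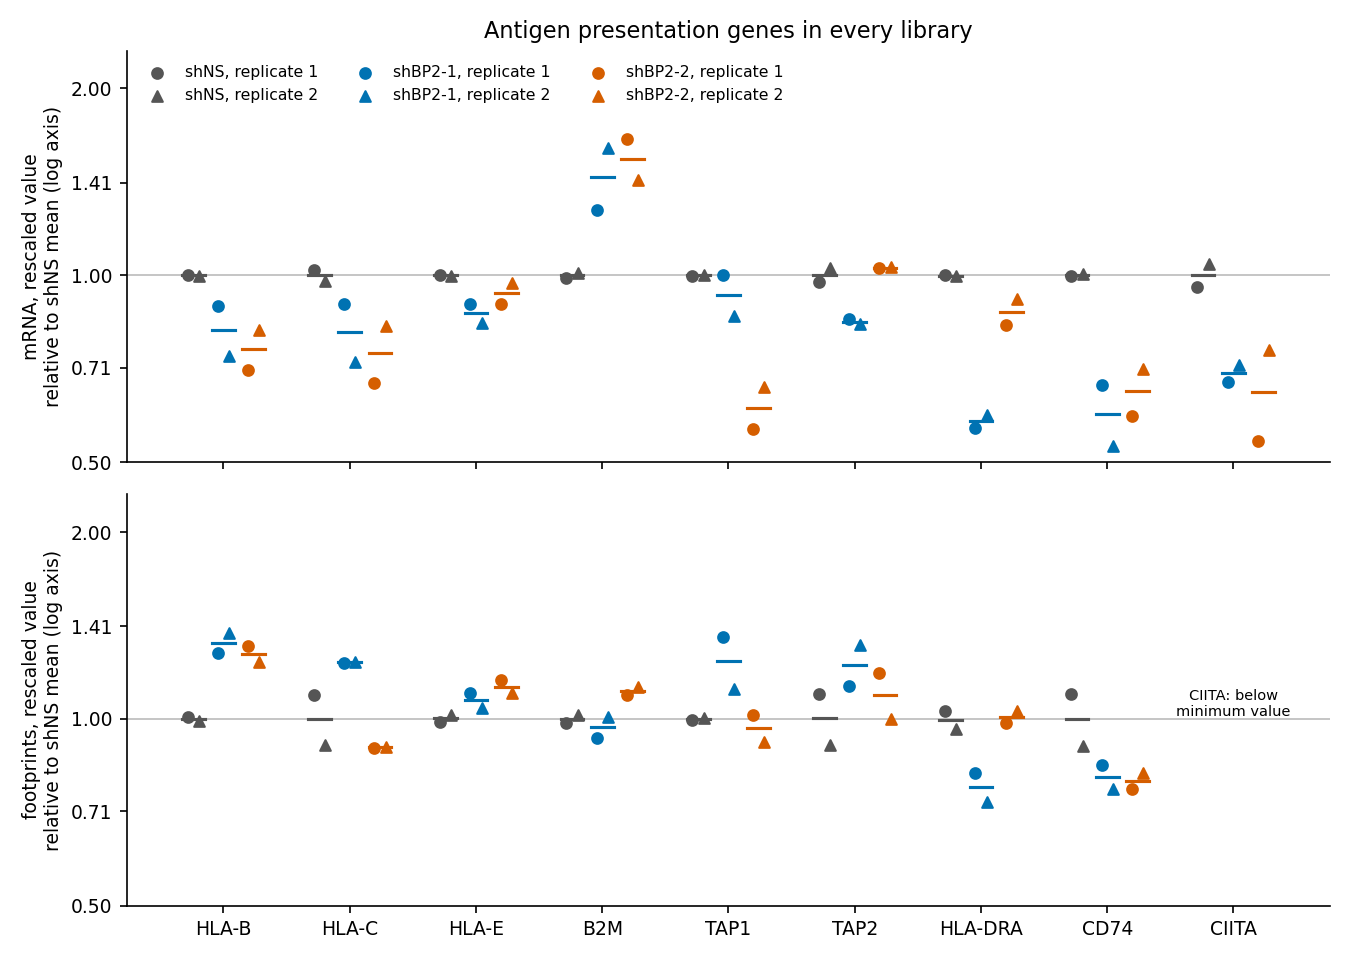
Rescaled mRNA values (upper panel) and footprint values (lower panel) of the 9 members in each library, divided by the mean of the 2 shNS libraries, on a log axis. Circles are replicate 1, triangles are replicate 2 and bars are group means. B2M mRNA lies above the control line in all 4 knockdown libraries while CD74 and HLA-B mRNA lie below it, and HLA-B footprints lie above it.

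HLA-B, a classical class I heavy chain, had rescaled mRNA values of 13228 and 13167 in the controls, 11768 and 9789 with shBP2-1, and 9303 and 10757 with shBP2-2. All 4 knockdown libraries were below both control libraries. The change was -0.35 ± 0.10 (SE) on the log2 scale (adjusted p = 0.0081, limma). HLA-C, the other classical heavy chain in the set, had 6125 and 5886 in the controls, 5396 and 4351 with shBP2-1, and 4024 and 4984 with shBP2-2. It was also lower in every knockdown library, by -0.37 ± 0.11 (SE) on the log2 scale (adjusted p = 0.011, limma). Without shNS mRNA replicate 1 neither call held, at adjusted p = 0.0833 for HLA-B and 0.102 for HLA-C, and without shNS mRNA replicate 2 the HLA-B call did not hold (adjusted p = 0.0672). HLA-E, a heavy chain that presents leader peptides to NK cell receptors, was at 86.8% of shNS with shBP2-1 and 93.5% with shBP2-2, a change of -0.15 ± 0.08 (SE) on the log2 scale that did not pass the test (adjusted p = 0.128, limma). With quantile normalization HLA-E passed, at -0.27 (adjusted p = 0.0117). HLA genes share long stretches of sequence, and how reads common to HLA-B and HLA-C were counted is not stated in the labels, so the split between them is uncertain.

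B2M, the light chain that every class I heavy chain needs to reach the surface, went the other way. Its rescaled mRNA values were 30707 and 31306 in the controls, 39478 and 49739 with shBP2-1, and 51366 and 44205 with shBP2-2. The lowest knockdown library was above the highest control. The rise was 0.57 ± 0.10 (SE) on the log2 scale, 1.48-fold (adjusted p = 0.000837, limma), and each hairpin passed alone, at 0.52 ± 0.12 with shBP2-1 and 0.62 ± 0.12 with shBP2-2.

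The transporter subunits differed between hairpins. TAP1 had rescaled mRNA values of 975 and 977 in the controls, 977 and 839 with shBP2-1, and 551 and 644 with shBP2-2. The shBP2-2 libraries were well below all others, while shBP2-1 overlapped the control. TAP1 fell by 0.71 ± 0.12 (SE) on the log2 scale with shBP2-2 (adjusted p = 0.000496, limma) and was at -0.11 ± 0.12 with shBP2-1 (adjusted p = 0.459). In the mean of both hairpins it was at -0.41 ± 0.10 (adjusted p = 0.00438), and without shNS mRNA replicate 1 that call did not hold (adjusted p = 0.0528). TAP2, its partner in the transporter, had 2304 and 2427 in the controls, 2011 and 1973 with shBP2-1, and 2425 and 2439 with shBP2-2. Here the shBP2-1 libraries were the lower ones and shBP2-2 lay at the level of the control. TAP2 fell by 0.25 ± 0.09 (SE) on the log2 scale with shBP2-1 (adjusted p = 0.0477, limma), a call that did not hold without any single one of 5 of the 6 mRNA libraries, and was at 0.04 ± 0.09 with shBP2-2.

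In the mean of both hairpins the lowest values were on the class II side. CD74, the invariant chain, had rescaled mRNA values of 5571 and 5610 in the controls, 3719 and 2969 with shBP2-1, and 3319 and 3955 with shBP2-2. Every knockdown library was below both controls by a margin wider than the spread within any group. CD74 fell by 0.69 ± 0.10 (SE) on the log2 scale (adjusted p = 0.000342, limma). HLA-DRA, the alpha chain of HLA-DR, had 503 and 500 in the controls, 285 and 299 with shBP2-1, and 417 and 459 with shBP2-2. The shBP2-1 libraries were lowest and shBP2-2 lay between them and the control. HLA-DRA fell by 0.49 ± 0.10 (SE) in the mean of both hairpins (adjusted p = 0.00166) and by 0.78 ± 0.12 with shBP2-1, and was at -0.20 ± 0.12 with shBP2-2 (adjusted p = 0.161). CIITA, the class II activator, had 234 and 254 in the controls, 164 and 175 with shBP2-1, and 132 and 185 with shBP2-2. All 4 knockdown values were below the controls, with a wide gap between the shBP2-2 libraries. CIITA fell by 0.58 ± 0.14 (SE) on the log2 scale (adjusted p = 0.00397, limma).

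Each hairpin alone moved 6 of the 9 members. With shBP2-1, B2M rose and HLA-B, TAP2, HLA-DRA, CD74 and CIITA fell, where 23.5% of all genes rose and 21.0% fell (44.5% in all). HLA-C with shBP2-1 was at -0.31 ± 0.12 (SE) and was not called (adjusted p = 0.0579, limma). It passed with quantile normalization (0.0322) and with all 12 libraries in the fit (0.0499). No HLA-C difference between hairpins was called (0.11, adjusted p = 0.545, limma). With shBP2-2, B2M rose and HLA-B, HLA-C, TAP1, CD74 and CIITA fell, where 28.2% rose and 28.8% fell (57.0% in all). Both comparisons used the same control libraries. The shBP2-1 call of HLA-B (adjusted p = 0.0446, limma) was lost with values as deposited (0.0525), with no minimum value (0.0947), and without shNS mRNA replicate 1 (0.201), shNS mRNA replicate 2 (0.173) or shBP2-1 mRNA replicate 2 (0.198, with the change at -0.17). That of CIITA was lost with no minimum value (0.0601) and without shNS mRNA replicate 1 (0.0664) or replicate 2 (0.118). With shBP2-2, leaving out its mRNA replicate 1 ended the calls of HLA-B (-0.29, adjusted p = 0.119), HLA-C (-0.27, 0.157) and CIITA (-0.40, 0.135). Leaving out shNS mRNA replicate 1 ended those of HLA-B (0.0669) and HLA-C (0.0782), and leaving out shNS mRNA replicate 2 that of HLA-B (0.0551). In the direct comparison of shBP2-1 with shBP2-2, 3 members differed, 1 higher and 2 lower, where 23.3% of all genes did (11.5% higher and 11.8% lower). TAP1 was higher with shBP2-1 by 0.60 ± 0.12 (SE) on the log2 scale (adjusted p = 0.00301, limma). HLA-DRA was lower with shBP2-1, at -0.58 ± 0.12 (adjusted p = 0.00443), and so was TAP2, at -0.29 ± 0.09 (adjusted p = 0.0423). For B2M the difference between hairpins was -0.10, with a 95% interval from -0.36 to 0.15, and for CD74 it was -0.12, from -0.39 to 0.14.

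**Figure D2:**
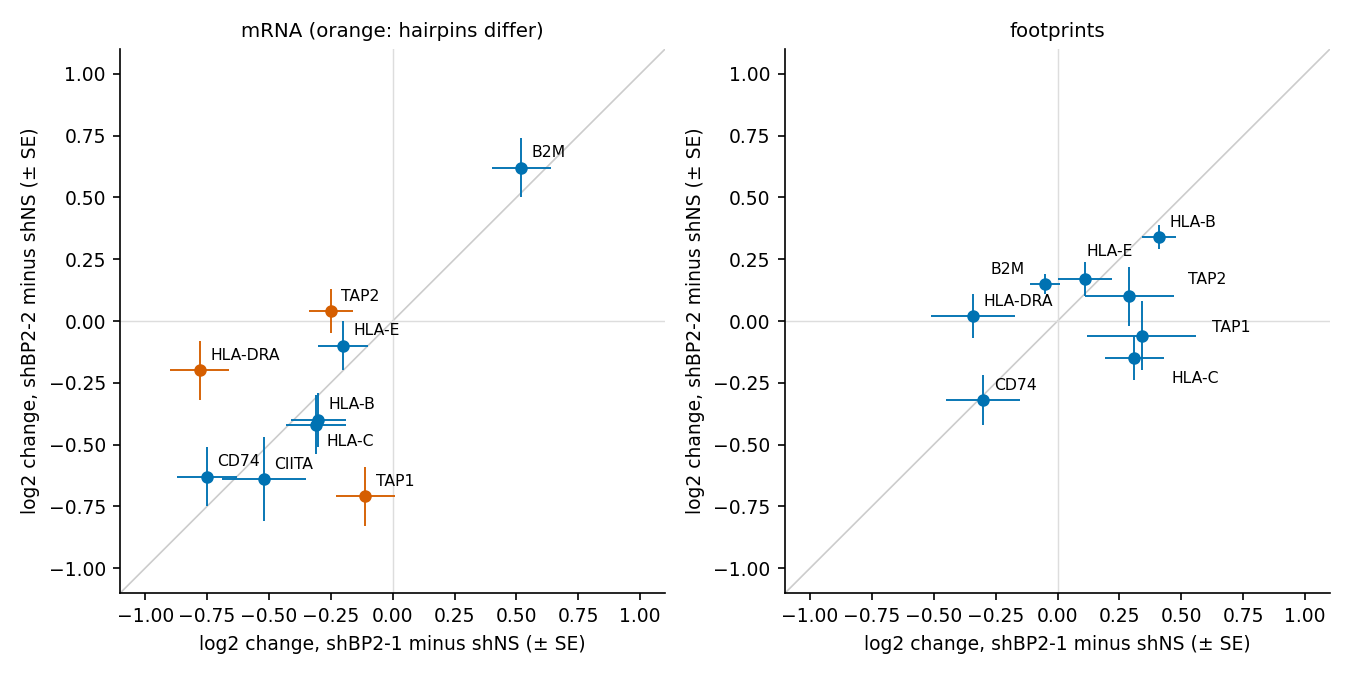
Log2 change from shNS with shBP2-1 (horizontal axis) against shBP2-2 (vertical axis) for mRNA (left) and footprints (right); points are members, bars are standard errors and the diagonal marks equal change. In mRNA, TAP1, TAP2 and HLA-DRA (orange) lie off the diagonal, where the test between hairpins passed, and B2M stands alone at the upper right.

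The mRNA libraries of each knockdown group also differed from each other, for several members in the direction of the knockdown change. The order in which libraries are set against each other here was chosen after the data had been seen, and it sets the sign of these differences. Between the libraries of a group (shBP2-1 replicate 2 over replicate 1 and shBP2-2 replicate 1 over replicate 2, averaged), the log2 difference was 0.275 for B2M, -0.238 for HLA-B, -0.309 for HLA-C, -0.289 for CD74 and -0.223 for TAP1. HLA-DRA, at -0.0368, and TAP2, at -0.0177, hardly differed. CIITA was at -0.196, but within shBP2-1 CIITA (0.0929) and HLA-DRA (0.0662) went against their fall. The median absolute difference over 12196 genes was 0.171. Across those genes, which are not independent replicates, the signed difference had r = 0.532 with the mean mRNA change, and the chosen order sets the sign of r. The part of this in the mRNA and translational efficiency results was not tested.

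Many other transcripts followed the same course over the libraries. Pearson's r was taken over the 6 mRNA libraries among 6805 genes. These were the genes with a mean rescaled value of at least 100 and a range of at least 0.5 log2 over those libraries. Those most like B2M were LDHA (r = 0.9999), SMAD2 (r = 0.9997) and ATP5F1C (r = 0.9996), and 1055 genes were above 0.95. Those most like CD74 were FNTB (r = 0.9996), LMNB2 (r = 0.9992) and MAD1L1 (r = 0.999), and 600 genes were above 0.95. The libraries share their groups, so these are descriptions of a common pattern.

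Footprints report ribosomes on the coding sequence. In the mean of both hairpins 1 of the 8 members tested changed: HLA-B rose, where 10.2% of all 8662 genes tested changed (5.55% rose and 4.64% fell), so the members' share is near that of all genes. The median change of the members was 0.11 on the log2 scale, beside 0.00 for all genes. With the footprint values as deposited, before rescaling, 0.0927% of all calls were higher than shNS, beside 54.5% after it, so a footprint direction here holds only relative to the middle gene. CIITA was below the minimum value in footprints and was not tested there, with deposited values of 26 and 19 in the controls, 1 and 3 with shBP2-1, and 13 and 14 with shBP2-2.

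HLA-B had rescaled footprint values of 1236 and 1218 in the controls, 1569 and 1686 with shBP2-1, and 1608 and 1517 with shBP2-2. All 4 knockdown libraries were above both controls, the reverse of its mRNA. How footprint reads common to HLA genes were counted is also not stated in the labels. The footprint and translational efficiency values of HLA-B are therefore uncertain in the same way as its mRNA. The rise in HLA-B footprints was 0.37 ± 0.05 (SE) on the log2 scale, 1.30-fold (adjusted p = 0.00048, limma). It was 0.41 ± 0.07 with shBP2-1 (adjusted p = 0.00435), the 1 call there, where 7.32% of all genes changed (4.54% rose and 2.78% fell), and 0.34 ± 0.05 with shBP2-2 (adjusted p = 0.000591), where 13.3% changed (7.45% rose and 5.90% fell) and 3 members were called. The shBP2-1 call did not hold without shBP2-1 footprint replicate 1 (adjusted p = 0.0595) or replicate 2 (adjusted p = 0.143).

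B2M footprints were 2972 and 3057 in the controls, 2803 and 3038 with shBP2-1, and 3291 and 3389 with shBP2-2. The shBP2-1 libraries overlapped the control and the shBP2-2 libraries lay above it, although its mRNA had risen with both hairpins. The mean change was 0.05 ± 0.04 (SE) on the log2 scale, with a 95% interval from -0.03 to 0.13 (adjusted p = 0.399, limma). With shBP2-2 alone B2M rose by 0.15 ± 0.04 (adjusted p = 0.0173), but this did not hold with quantile normalization (0.03, adjusted p = 0.579), nor without either footprint library of shBP2-1 (adjusted p = 0.0803 and 0.0775) or of shBP2-2 (0.0707 and 0.205).

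HLA-C footprints were 612 and 508 in the controls, 689 and 692 with shBP2-1, and 503 and 505 with shBP2-2. The hairpins lay on opposite sides of a wide control, and the mean change was 0.08 ± 0.08 (SE). It depended on the controls, with 0.22 (adjusted p = 0.0362) without shNS footprint replicate 1 and -0.05 without replicate 2. HLA-E was at 107% and 113% of shNS, TAP1 at 124% and 96.7%, and TAP2 at 122% and 109%, for shBP2-1 and shBP2-2. TAP1 rested on deposited values as low as 20 in shBP2-1.

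CD74 footprints were 631 and 519 in the controls, 485 and 443 with shBP2-1, and 443 and 471 with shBP2-2. All knockdown libraries were below both controls, which were far apart. The mean change was -0.31 ± 0.10 (SE) and did not pass the test (adjusted p = 0.0579, limma), though it did without shNS footprint replicate 2, at -0.45 (adjusted p = 0.000758). With shBP2-2 alone CD74 fell by 0.32 ± 0.10 (adjusted p = 0.042). That call did not hold without shNS footprint replicate 1 (-0.18, adjusted p = 0.092) or without any 1 of the 4 knockdown footprint libraries (adjusted p = 0.056 to 0.2). HLA-DRA footprints were 198 and 185 in the controls, 157 and 141 with shBP2-1, and 189 and 198 with shBP2-2. The shBP2-1 libraries were the lowest, as in mRNA, and shBP2-2 overlapped the control. Between hairpins no member passed in footprints, where 6.75% of all genes did (3.64% higher and 3.12% lower with shBP2-1). At an unadjusted p under 0.05 there were 2 (HLA-C and B2M), and the trend test without weights called 3.

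**Figure D3:**
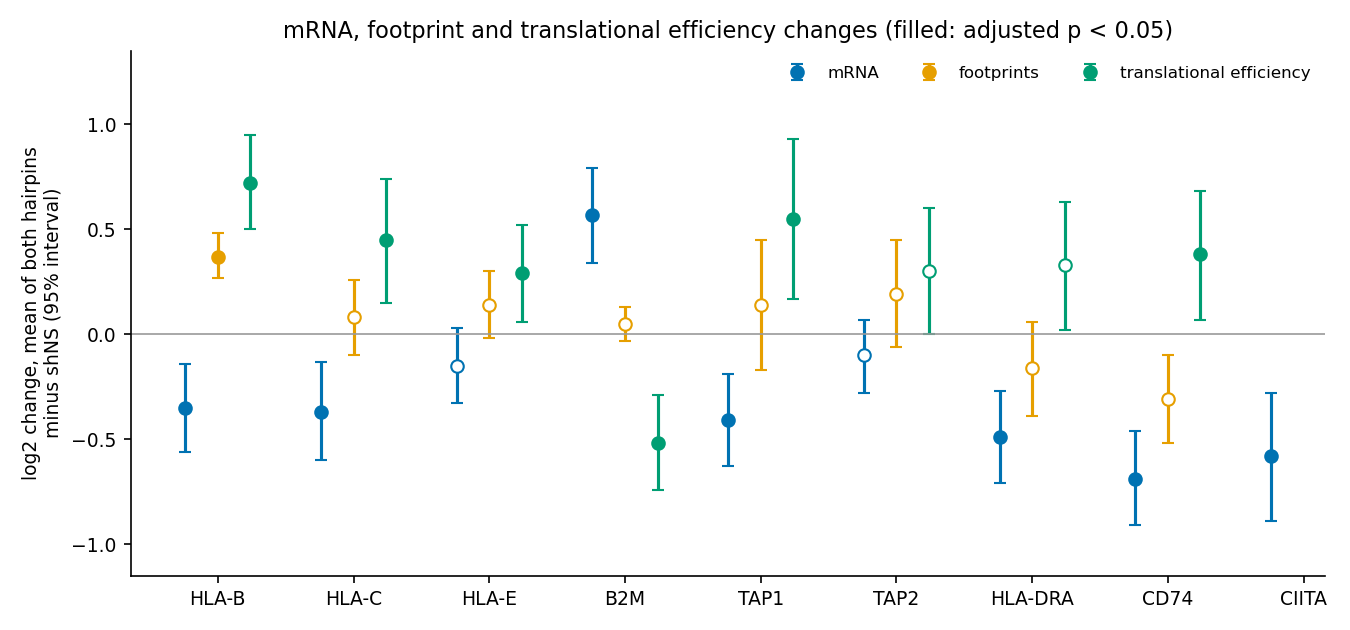
Log2 change in the mean of both hairpins from shNS for mRNA, footprints and translational efficiency of each member, with 95% intervals. Filled points passed the test. HLA-B mRNA is at -0.35 and its footprints are at 0.37, while B2M mRNA is at 0.57 and its footprints are at 0.05.

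Translational efficiency was taken as the footprint change minus the mRNA change and tested as an interaction over all 12 libraries, so a member whose mRNA fell with level footprints has a higher value by construction. In the mean of both hairpins 5 of the 8 members tested rose (HLA-B, HLA-C, HLA-E, TAP1 and CD74) and B2M fell, where 39.2% of all 8580 genes tested changed (18.8% rose and 20.3% fell). The median of the members was 0.35 on the log2 scale, beside -0.03 for all genes. HLA-B rose by 0.72 ± 0.11 (SE), 1.65-fold (adjusted p = 0.000103, limma), and was the member whose footprints themselves had risen. B2M fell by 0.52 ± 0.11 (adjusted p = 0.00114). TAP1 was at 0.55 ± 0.18 (adjusted p = 0.0226) and HLA-C at 0.45 ± 0.14 (adjusted p = 0.0177), and neither call held without shNS mRNA replicate 1 (adjusted p = 0.065 and 0.0974) or replicate 2 (0.058 and 0.0534). TAP1 also lost its call without shBP2-2 mRNA replicate 1 (0.0505) and without shBP2-1 footprint replicate 1 (0.102). CD74, at 0.38 ± 0.15 (adjusted p = 0.0492), and HLA-E, at 0.29 ± 0.11 (adjusted p = 0.0453), passed narrowly. Leaving out either shNS mRNA library took CD74 to 0.142 or 0.138 and HLA-E to 0.163 or 0.141, and each also lost its call without several knockdown libraries. HLA-DRA, at 0.33 ± 0.15 (adjusted p = 0.0787), and TAP2, at 0.30 ± 0.15 (adjusted p = 0.105), did not pass.

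Hairpin by hairpin, 3 of 8 members were called each time. With shBP2-1, HLA-B was at 0.70 ± 0.13, HLA-C at 0.62 ± 0.18 and B2M at -0.56 ± 0.13, where 19.3% of all genes changed (9.67% rose and 9.63% fell). With shBP2-2, HLA-B was at 0.74 ± 0.12, TAP1 at 0.65 ± 0.19 and B2M at -0.47 ± 0.12, where 39.5% changed (19.6% rose and 20.0% fell). B2M and TAP1 lost their shBP2-2 calls without shBP2-2 mRNA replicate 1 (adjusted p = 0.0768 and 0.0677), and HLA-C lost its shBP2-1 call without shNS mRNA replicate 1 (0.0835), shBP2-1 mRNA replicate 2 (0.0826) or either shBP2-1 footprint library (0.0764 and 0.0785). Between hairpins no member was called, where 0.583% of all genes were (0.408% higher and 0.175% lower), and 1 (TAP2) had an unadjusted p under 0.05.

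Set against all genes within a group, footprints per mRNA placed HLA-B at the 73.3rd percentile in shNS and at the 89.9th and 89.7th with shBP2-1 and shBP2-2. B2M went from the 75.3rd to the 56.4th and 58.3rd. HLA-DRA was at the 98.8th percentile in shNS, 2.69 above the median gene on the log2 scale, and at the 99th and 98.9th in the knockdowns. Untranslated regions add to mRNA values but not to footprints, so positions between genes carry that difference too.

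The opposite course of B2M and its heavy chains can be read within each library, with no scaling between libraries; these ratios were chosen after the values were seen and are a description, with no test. The ratio of B2M to HLA-B values in mRNA was 2.32 and 2.38 in the controls, 3.35 and 5.08 with shBP2-1, and 5.52 and 4.11 with shBP2-2. All 4 knockdown libraries were above the controls, by 1.89-fold on average. In footprints the same ratio was 2.40 and 2.51 in the controls, 1.79 and 1.80 with shBP2-1, and 2.05 and 2.23 with shBP2-2, all lower than the controls (0.797-fold). For HLA-C the mRNA ratio was 1.91-fold and for HLA-E 1.65-fold that of the controls, without overlap between groups, and in footprints both ratios overlapped the control, at 0.978-fold and 0.943-fold. The ratio of CD74 to HLA-DRA overlapped the control in both assays.

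**Figure D4:**
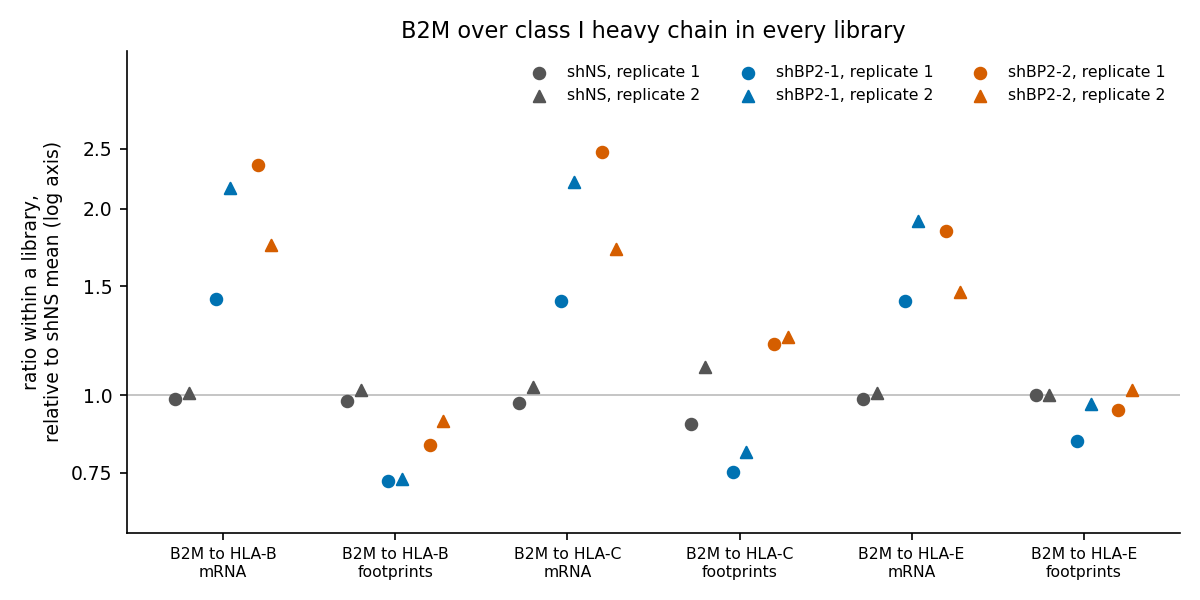
Ratio of B2M to HLA-B, HLA-C and HLA-E values within each library, divided by the mean ratio of the 2 shNS libraries, on a log axis; circles are replicate 1 and triangles are replicate 2. In mRNA all knockdown libraries are at 1.42 or higher on this scale, and in footprints the B2M to HLA-B ratios lie between 0.727 and 0.909.

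The rest of the pathway was read from 51 further genes, of which 41 passed the minimum in mRNA and 34 in footprints. In mRNA 8 rose and 12 fell (median -0.17), in footprints 9 rose and 0 fell (median 0.18), and in translational efficiency 14 rose and 5 fell (median 0.33), on the log2 scale in the mean of both hairpins. Of all genes tested, 28.9% rose and 30.1% fell in mRNA, 5.55% and 4.64% in footprints, and 18.8% and 20.3% in translational efficiency, and the counts by role below stand beside the same shares. Named below are up to 3 called genes per role with the largest change, all from limma.

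Of 7 peptide loading genes in mRNA, 4 rose and 0 fell, where 28.9% and 30.1% of all genes did. PDIA3, a disulfide isomerase of the loading complex, rose by 0.74 ± 0.10, ERAP1, which trims peptides in the endoplasmic reticulum, by 0.48 ± 0.10, and ERAP2, its relative, by 0.40 ± 0.10. In footprints PDIA3 rose by 0.27 and CALR, the chaperone calreticulin, by 0.19. The CALR rise was called with shBP2-2 alone (0.27, adjusted p = 0.000148, limma) and not with shBP2-1 alone (0.10, adjusted p = 0.247). In translational efficiency 4 of 6 fell, with ERAP1 and ERAP2 at -0.63 each and PDIA3 at -0.48, and 2 rose, where 20.3% of all genes fell and 18.8% rose. Of 5 immunoproteasome genes, which cut peptides for class I, 4 fell in mRNA (30.1% of all genes), among them the catalytic subunits PSMB8 and PSMB10 at -0.36 each and the activator subunit PSME1 at -0.31. With shBP2-1 alone PSME1 was the 1 of 5 called lower in mRNA (21.0% of all genes), and PSMB8 and PSMB10 were at adjusted p = 0.0616 and 0.0597 (limma). With shBP2-2 alone 4 fell, where 28.8% of all genes did. PSMB8 footprints rose by 0.28 (adjusted p = 0.046), where 5.55% of all genes rose. With shBP2-1 alone that rise was not called (0.20, adjusted p = 0.35). In translational efficiency PSMB8 (0.64), PSMB9 (0.55) and PSMB10 (0.50) rose, and 0 fell. With shBP2-1 alone 0 of the 5 were called, where 19.3% of all genes were, and these genes were at adjusted p = 0.055, 0.172 and 0.0952 (limma). With shBP2-2 alone all 3 rose, where 19.6% of all genes did.

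Among 7 further class II chains tested in mRNA, 2 fell and 0 rose, where 30.1% and 28.9% of all genes did. HLA-DRB5, which shares sequence with HLA-DRB1 and is uncertain for that reason, fell by 1.14 ± 0.27. Its deposited mRNA values were low, at 33 and 27 in the controls, 15 and 15 with shBP2-1, and 11 and 12 with shBP2-2. HLA-DMA, a chain of the peptide exchange factor HLA-DM, fell by 0.85 ± 0.16. It was at -0.53 with shBP2-1 and -1.16 with shBP2-2, and the hairpins differed by 0.63 (adjusted p = 0.045, limma). HLA-DMB, the other chain of HLA-DM, rose in footprints by 1.23 ± 0.35 (adjusted p = 0.0451) and in translational efficiency by 1.36 ± 0.39. Its deposited footprint values were low, at 32 and 14 in the controls, 12 and 9 with shBP2-1, and 8 and 13 with shBP2-2. The footprint rise was 2.31 with shBP2-1 (adjusted p = 0.00745), the value was 0.15 with shBP2-2 (adjusted p = 0.857), and the hairpins differed by 2.16 (adjusted p = 0.0208). In translational efficiency HLA-DMB was at 2.17 with shBP2-1 (adjusted p = 0.00409) and 0.55 with shBP2-2 (adjusted p = 0.355). HLA-DPB1 rose in translational efficiency by 1.31 ± 0.38. This rested on deposited footprint values of 24 and 28 in the controls, 4 and 8 with shBP2-1, and 16 and 23 with shBP2-2. It was called with shBP2-1 (1.64, adjusted p = 0.0338, limma) and not with shBP2-2 (0.98, adjusted p = 0.0577). Of 7 endosomal processing genes 0 were called in mRNA in the mean of both hairpins, where 59.0% of all genes were. The hairpins differed there: 2 rose with shBP2-1 (23.5% of all genes), and 1 rose and 2 fell with shBP2-2 (28.2% and 28.8%). In the direct comparison 3 were higher with shBP2-1, where 11.5% of all genes were. In footprints 4 of 6 rose in the mean of both hairpins, where 5.55% of all genes did. They were led by IFI30, a thiol reductase that unfolds endosomal proteins (0.73 ± 0.09), and the proteases CTSD (0.61 ± 0.07) and CTSL (0.49 ± 0.10). In translational efficiency 3 of the 6 rose, beside 18.8% of all genes, with CTSD at 0.62, CTSB at 0.54 and IFI30 at 0.51.

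Of 11 transcriptional control genes 3 rose and 4 fell in mRNA, beside 28.9% and 30.1% of all genes. NFYB, a subunit of the CCAAT-binding factor NF-Y, rose by 0.74 ± 0.10. RFXANK, a subunit of the RFX complex on class II promoters, fell by 0.70 ± 0.12 and the interferon-response factor IRF1 by 0.69 ± 0.10. Rescaled RFXANK mRNA was 1288 and 1301 in the controls, 1143 and 850.8 with shBP2-1, and 586.4 and 708.7 with shBP2-2. In the direct comparison of hairpins, 2 of the 11 were higher with shBP2-1 and 3 were lower, where 11.5% and 11.8% of all genes were. In footprints 1 of 10 rose, NFYA, at 0.73 ± 0.18 (adjusted p = 0.0214). Its rescaled values were 39.1 and 35.33 in the controls, 66.9 and 93.07 with shBP2-1, and 41.78 and 51.96 with shBP2-2. The shBP2-1 values rested on deposited values of 20 and 25. With shBP2-2 alone NFYA was not called, nor was any other of the 10, where 13.3% of all genes were. In translational efficiency NLRC5, the class I counterpart of CIITA, rose by 1.20 ± 0.38, RFXANK by 1.18 ± 0.20 and IRF1 by 0.62 ± 0.20. Rescaled RFXANK footprints were 65.83 and 70.66 in the controls, 120.4 and 126.6 with shBP2-1, and 85.55 and 63.66 with shBP2-2. NLRC5 rested on low deposited footprint values: 20 and 19 in the controls, 3 and 5 with shBP2-1, and 8 and 19 with shBP2-2. With shBP2-1 alone, 1 of 10 transcriptional control genes rose in translational efficiency and 0 fell, where 9.67% and 9.63% of all genes did. With shBP2-2 alone, 2 rose and 2 fell, where 19.6% and 20.0% did. Of the costimulatory ligands, 2 of 5 were tested in mRNA, where CD86 rose by 0.49 ± 0.13 and ICOSLG fell by 0.34 ± 0.13 in the mean of both hairpins. Each was called with 1 hairpin alone: ICOSLG with shBP2-1, where 21.0% of all genes fell, and CD86 with shBP2-2, where 28.2% rose.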

How the data were processed

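The deposited table held, per gene symbol and library, a score: the authors' normalized read count, rounded to whole numbers. The normalization method, and whether counting used strand, are not given in the sources used here. FastQC, cutadapt, Bowtie, STAR and RSEM with build hg38 are named in the submitters' processing notes, without roles.

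Within each assay, values were divided by median-ratio factors (0.9789 to 1.017 for mRNA, 0.2686 to 2.993 for footprints) and tested with limma 3.58.1 in R 4.3.3, with voom weights, an offset of 0.5 and 1 mean per group, in genes with a mean rescaled value of at least 10. These are scaled values and not counts, so no count model was used. Tests were two-sided, with Benjamini-Hochberg adjustment over all genes tested and calls at an adjusted p under 0.05. Residual degrees of freedom were 3 per assay and 6 for translational efficiency. All 9 members and IGF2BP2 are named throughout, other pathway genes by the rule given with them. Some genes that this rule names are not reported here. The members, lists and tests were chosen with earlier results of these data known. The fits were tested on simulated data. Sequences and positions are from RefSeq GRCh38.p14 tables, in which 6 of the 9 members had a promoter. Alternatives were the values as deposited, quantile normalization, an unweighted trend test with a pseudocount of 1 or 8, no minimum, all 12 libraries in the fit, a replicate block, and leaving out each library.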

Additional observations from a re-analysis of the deposited data

Results flagged for a closer look

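The mRNA response of 3 members differed between the hairpins in a direct test of shBP2-1 minus shBP2-2, with limma and adjustment over 12196 genes. TAP1 stood at 0.60 ± 0.12 (SE) on the log2 scale (adjusted p = 0.00301), with both shBP2-2 libraries below every other library. HLA-DRA stood at -0.58 ± 0.12 (adjusted p = 0.00443), with both shBP2-1 libraries lowest. TAP2 stood at -0.29 ± 0.09 (adjusted p = 0.0423), and its call did not hold with the values as deposited (0.0651), with no minimum value (0.0565), with all 12 libraries in the fit (0.0617), or without any 1 of the shNS or shBP2-2 mRNA libraries (0.112 to 0.214). The summed monocyte and myeloid markers also differed between the hairpins, and their part in these differences was not tested.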

How the results depend on the processing

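The rise of B2M mRNA, the falls of CD74, HLA-DRA and CIITA mRNA in the mean of both hairpins, the rise of HLA-B footprints in that mean, and the translational efficiency changes of HLA-B and B2M in it kept their direction and passed the test under every alternative run for them, with 1 exception; CIITA was not tested with all 12 libraries in the fit. The exception is the use of footprint values as deposited, with no rescaling, under which the median of all genes was -2.26 for footprints and -2.28 for translational efficiency on the log2 scale, and 0.0927% and 0.106% of calls were higher, beside 54.5% and 48.1%. The values that changed sign there were, in footprints in the mean of both hairpins, HLA-B -1.88, HLA-C -2.17, HLA-E -2.12, B2M -2.21, TAP1 -2.11 and TAP2 -2.04. HLA-B was at -2.92 with shBP2-1 and -0.84 with shBP2-2, and B2M at -1.04 with shBP2-2. In translational efficiency they were HLA-B -1.51, HLA-C -1.79, HLA-E -1.95, TAP1 -1.69, TAP2 -1.93, HLA-DRA -1.92 and CD74 -1.87 in the mean of both hairpins, HLA-B -2.62 and HLA-C -2.71 with shBP2-1, and HLA-B -0.41 and TAP1 -0.49 with shBP2-2. With quantile normalization B2M footprints went to -0.03 in the mean of both hairpins and TAP2 mRNA to -0.0 with shBP2-2. Without shNS footprints replicate 2, HLA-C footprints went to -0.05 and, without replicate 1, to 0.22.

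With values as deposited 8 members were called in each of the 4 footprint comparisons, in translational efficiency with shBP2-1 and between hairpins, and 6 in translational efficiency with shBP2-2. With shBP2-1 mRNA, no minimum value left 3 called. For footprints in the mean of both hairpins the replicate block gave 2. With shBP2-1 the trend test gave 2 at either pseudocount. With shBP2-2 quantile normalization, the trend test at either pseudocount and all 12 libraries in the fit gave 1. Between hairpins the trend test gave 3 at either pseudocount, all 12 libraries in the fit 1 and the replicate block 2. Leaving out each library, the members called ranged from 4 to 8 for mRNA in the mean of both hairpins, 3 to 8 with shBP2-1, 3 to 6 with shBP2-2 and 2 to 4 between hairpins. For footprints the ranges were 1 to 2, 0 to 2, 1 to 4 and 0 to 2 in the same order. For translational efficiency they were 2 to 7, 2 to 5, 1 to 5 and 0. Where a group was left with 1 library, that library was assumed to vary like the others.

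Over all genes, the 883 footprint calls in the mean of both hairpins became 8627 as deposited and 495 with the trend test at pseudocount 1. The 634 with shBP2-1 became 8637 as deposited, 1479 and 1611 with the trend test, 1105 with no minimum, 1202 with all 12 libraries and 1055 with the replicate block. The 1156 with shBP2-2 became 7825 as deposited and 341 and 390 with the trend test. The 585 between hairpins became 8354, 1832 and 1952 likewise, 1267 with all 12 libraries and 1051 with the block. Translational efficiency calls went from 3362 to 8518 as deposited in the mean. They went from 1656 to 8552 and, with the trend test, 2681 and 2897 with shBP2-1, and from 3390 to 5839 and 1946 with shBP2-2. Between hairpins 50 became 8303 as deposited, 387 and 391 with the trend test, 100 with no minimum and 31 with quantile normalization. Leaving out each library gave 3657 to 8234 mRNA calls in the mean, 2094 to 7155 with shBP2-1, 4180 to 7831 with shBP2-2 and 1740 to 4045 between hairpins. For footprints it gave 268 to 1160, 101 to 934, 483 to 1502 and 115 to 998, and for translational efficiency 2107 to 4060, 620 to 2603, 1868 to 3796 and 25 to 88. The cause of these moves was not tested.

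Same-numbered mRNA libraries did not deviate in a common direction across the groups. Deviations of same-numbered mRNA libraries were compared over 3024 genes with a mean rescaled value of at least 100 in both assays. They had r = 0.365 for shNS with shBP2-1, -0.376 for shNS with shBP2-2 and -0.904 for shBP2-1 with shBP2-2. For footprint libraries over the same genes, r was 0.0929, 0.113 and -0.147 in that order. Over all 12196 genes tested in mRNA, r for shBP2-1 with shBP2-2 was -0.331. In the fit with the replicate block, HLA-B (adjusted p = 0.0772) and TAP2 (0.121) mRNA with shBP2-1, the TAP2 difference between hairpins (0.117) and the translational efficiency of HLA-E over both hairpins (0.052) no longer passed, and CD74 footprints passed (0.0242). With numbers crossed between the hairpins, an alternative chosen after seeing the data, 5028 genes were called between hairpins in mRNA, beside 2840. Depth limits the shBP2-1 footprints, with TAP1 at deposited values of 20 and 27.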
